A study of Mus musculus with 9 samples.

Results

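Small leucine-rich proteoglycans were followed as a family of 7 genes, Bgn, Dcn, Aspn, Fmod, Lum, Prelp and Ogn, among the 22036 annotated genes of a mouse left ventricular mRNA-seq table. The members were the rows carrying these 7 gene symbols. All 7 had counts in every library and all 7 were among the 14160 genes tested. The study has 3 groups of wild-type mice with 3 biological replicates each. HFD AAV-BCKDK hearts came from mice on a diet marked HFD, taken to be high-fat, that had received an adeno-associated virus (AAV) vector named for BCKDK, the kinase that inhibits branched-chain ketoacid dehydrogenase. HFD AAV-CON hearts came from mice on that diet given a control vector instead. ND AAV-CON hearts came from mice on a diet marked ND, taken to be normal, given the control vector. All mice therefore carried an AAV vector, and no group went without one. The promoter and dose of the vectors, the length of feeding, the strain, sex and age of the mice, and whether a library came from 1 heart were not stated in the sources used here. By its title, the study concerns BCKDK in the cardiac remodelling of obesity.

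Small leucine-rich proteoglycans are secreted core proteins built from leucine-rich repeats, most of which carry glycosaminoglycan chains. They bind collagen fibrils, set fibril diameter and spacing, and hold growth factors such as TGF-beta in the matrix, and some act on cell-surface receptors when released in soluble form. Class I holds Bgn (biglycan) and Dcn (decorin), which carry chondroitin or dermatan sulfate, and Aspn (asporin), which lacks such a chain. Class II holds Fmod (fibromodulin) and Lum (lumican), which can carry keratan sulfate, and Prelp, which binds both collagen and heparan sulfate. Ogn (osteoglycin, also called mimecan) belongs to class III. In the heart these genes are known mainly from fibroblasts, and several are known to be induced when the myocardium becomes fibrotic.

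The genes lay in clusters on mm10. Fmod (ENSMUSG00000041559, chr1:134037254-134048277, plus strand) and Prelp (ENSMUSG00000041577, chr1:133910304-133921414, minus strand) were 116 kb apart and pointed away from each other. Dcn (ENSMUSG00000019929, chr10:97479609-97518143) and Lum (ENSMUSG00000036446, chr10:97565128-97572703) were 47.0 kb apart on the plus strand. Aspn (ENSMUSG00000021388, chr13:49544443-49567565) and Ogn (ENSMUSG00000021390, chr13:49608046-49624501) stood on the plus strand with Omd between them, and Bgn (ENSMUSG00000031375, chrX:73483602-73495933) stood alone on the X chromosome. In the longest annotated transcript the 3 class I members had 8 exons each, the 3 class II members 3 exons each and Ogn 7 exons. The whole chromosome 13 group lay inside the span of Cenpp on the opposite strand. Aspn shared 7 exon bases with Cenpp, whose own level was only 1.28 to 2.29 CPM in the 9 libraries. Prelp shared 350 exon bases with the antisense gene Gm15851, which was not analysed here. Whether reads were assigned by strand was not stated, so a part of the Prelp counts could belong to Gm15851.

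RefSeq promoter windows, 250 bases before to 50 bases after the annotated start on build GRCm38.p6, were on hand for 5 of the 7 members, namely Fmod, Prelp, Bgn, Aspn and Ogn. The windows of Fmod, Prelp and Bgn are shown because these 3 genes rose and fell by the widest margins, and that of Ogn because it was called in no comparison. Capitals mark matches, on either strand, to 9 motifs that were searched: the TATA box TATAAA, the GC box GGGCGG, the CCAAT box CCAAT, the E-box CANNTG, the AP-1 motif TGANTCA, the SMAD motif CAGACA, the RUNX motif TGTGGT, the TEAD motif GGAATG and the NF-kB motif, which is GGGA and TTCC with any 2 bases between.
Fmod (chr1:134037004-134037303, plus strand): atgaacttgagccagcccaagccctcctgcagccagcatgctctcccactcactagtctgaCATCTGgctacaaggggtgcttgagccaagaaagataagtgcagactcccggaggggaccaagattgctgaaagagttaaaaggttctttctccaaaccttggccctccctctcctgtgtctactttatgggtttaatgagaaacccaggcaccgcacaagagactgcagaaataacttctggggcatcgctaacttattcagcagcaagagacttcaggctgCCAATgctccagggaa
Prelp (chr1:133921352-133921651, minus strand): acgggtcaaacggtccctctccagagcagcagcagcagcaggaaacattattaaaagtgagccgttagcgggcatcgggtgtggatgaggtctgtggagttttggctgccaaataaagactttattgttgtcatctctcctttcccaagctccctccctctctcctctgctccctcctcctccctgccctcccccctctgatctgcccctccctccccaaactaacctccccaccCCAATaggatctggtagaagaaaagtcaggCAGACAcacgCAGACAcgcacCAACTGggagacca
Bgn (chrX:73483351-73483650, plus strand): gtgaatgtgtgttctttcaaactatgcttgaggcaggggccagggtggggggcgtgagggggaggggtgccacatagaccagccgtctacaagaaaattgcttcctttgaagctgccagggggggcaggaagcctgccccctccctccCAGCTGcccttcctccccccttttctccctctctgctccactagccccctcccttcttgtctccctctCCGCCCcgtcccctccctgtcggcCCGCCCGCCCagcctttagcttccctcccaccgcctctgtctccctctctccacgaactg
Ogn (chr13:49607765-49608064, plus strand): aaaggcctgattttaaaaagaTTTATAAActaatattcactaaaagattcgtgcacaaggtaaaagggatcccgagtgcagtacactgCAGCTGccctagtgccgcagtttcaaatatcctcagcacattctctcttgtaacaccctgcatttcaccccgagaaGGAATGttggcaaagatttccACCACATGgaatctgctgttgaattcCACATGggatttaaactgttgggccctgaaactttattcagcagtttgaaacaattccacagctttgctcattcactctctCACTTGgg

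The windows had little in common. Bgn had the highest GC content, 63.7%, and held 3 GC boxes, of which the last 2 overlapped, while Prelp had 55.3% GC, Fmod 51.0%, Ogn 42.3% and Aspn 31.0%, beside a median of 52.7% over 32851 mouse windows. An E-box was present in all 5, as it was in 72.3% of all windows. The TATA box was found in Ogn and Aspn and in 13.6% of all windows. Its matches began at positions -229 and -227 in Ogn and -207 and -178 in Aspn, counted from the annotated start. The GC box was found in Bgn alone of the 5 and in 35.7% of all windows. The SMAD motif was found in Prelp alone of the 5, as 2 matches after the start, and in 21.04% of all windows. Fmod, Prelp and Aspn held a CCAAT box, as did 37.4% of all windows. It began at position 35 in Fmod, -15 in Prelp and -229 in Aspn. Ogn held a RUNX match that overlaps an E-box and a TEAD match, which stood in 16.8% and 14.7% of all windows. None of the 5 windows held the AP-1 motif, found in 7.81% of all windows, or the NF-kB motif, found in 1.47%. A match is a run of letters and not a known binding site, and binding was not measured.

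Depth was 32803233 to 45483044 counts in annotated genes per library. Mitochondrially encoded genes took 45.03% to 47.6% of counts in HFD AAV-BCKDK, 26.1% to 39.9% in HFD AAV-CON and 42.1% to 45.7% in ND AAV-CON. Bckdk was at 111 to 126 CPM in HFD AAV-BCKDK, 37.1 to 65.0 CPM in HFD AAV-CON and 70.3 to 78.6 CPM in ND AAV-CON, where CPM is the count scaled to a common library size with TMM factors. Loci without a gene name took 1.02% of counts in HFD AAV-CON replicate 3 and 4.75% to 6.01% in the other 8 libraries. The 3 HFD AAV-CON libraries stood apart from each other. Replicate 1 was the highest and replicate 2 the lowest of the group for 7 of 7 members. For Ogn replicates 1 and 3 were nearly tied, at 108.43 and 108.17 CPM. Replicate 3 lay between the others for 7 of 7 members and for 64.2% of all genes tested. That share counts genes with either replicate 1 or replicate 2 highest. In HFD AAV-BCKDK and ND AAV-CON, a library lay between the others of its group for 27.0% to 37.7% of genes. No library's counts matched another of its group within sampling noise, and whether HFD AAV-CON replicate 3 shares material with the other two was not tested.

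**Figure D1:**
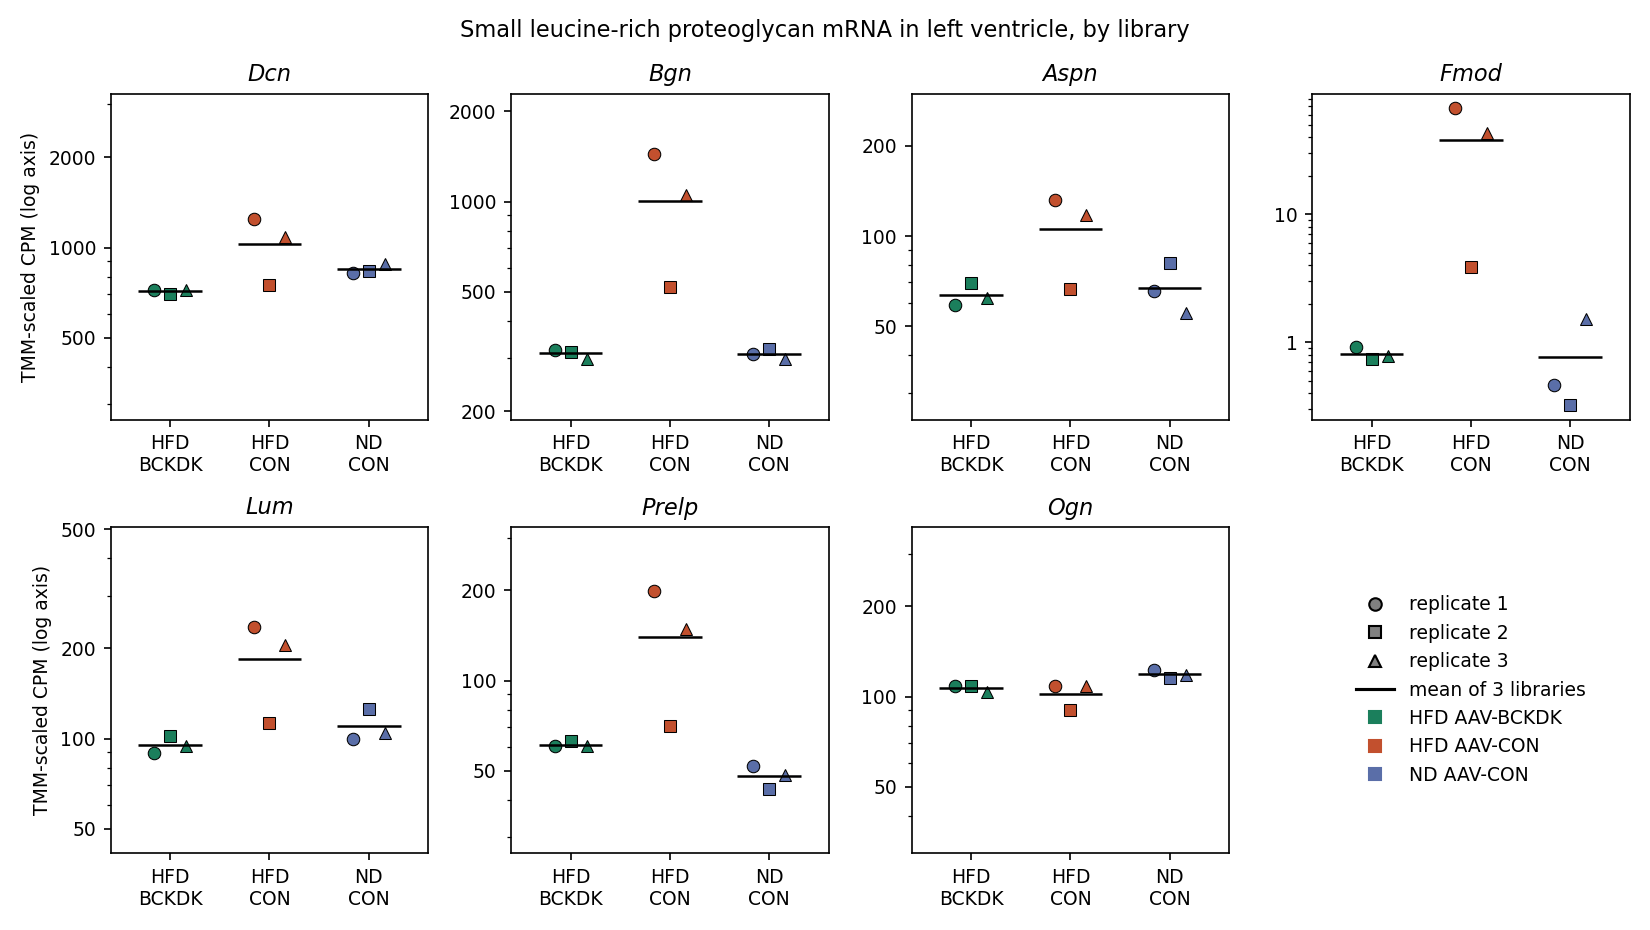
TMM-scaled CPM of each member (log axis, 1 panel per gene) in the 3 HFD AAV-BCKDK, 3 HFD AAV-CON and 3 ND AAV-CON libraries, with lines at group means. In HFD AAV-CON the 3 libraries keep the order replicate 1, 3, 2 in every panel, with replicates 1 and 3 nearly tied for Ogn. For each gene the other groups span less of the axis. In ND AAV-CON Fmod, at its low level, runs from 0.32 to 1.52 CPM and Aspn from 55.4 to 81.2 CPM.

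Decorin had the highest mean level of the family in every group. Per kilobase of mRNA, HFD AAV-BCKDK hearts averaged 406 CPM per kb of Dcn, 129 of Bgn, 41.6 of Ogn, 39.0 of Lum, 27.3 of Aspn, 16.9 of Prelp and 0.261 of Fmod. In HFD AAV-CON hearts the order was Dcn at 584, Bgn at 416, Lum at 75.3, Aspn at 45.2, Ogn at 39.9, Prelp at 38.5 and Fmod at 12.2 CPM per kb. ND AAV-CON hearts averaged 481 CPM per kb of Dcn, 128 of Bgn, 46.3 of Ogn, 44.96 of Lum, 28.9 of Aspn, 13.3 of Prelp and 0.246 of Fmod. The order was thus the same in HFD AAV-BCKDK and ND AAV-CON, and in both only Ogn and Lum overlapped with a neighbour in it. In HFD AAV-CON only Bgn and Lum were separate neighbours, and every other neighbouring pair overlapped between libraries. The summed level of the 7 members was 1343 to 1361 CPM in HFD AAV-BCKDK, 3435, 1613 and 2758 CPM in HFD AAV-CON replicates 1, 2 and 3, and 1474 to 1521 CPM in ND AAV-CON.

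The diet comparison set HFD AAV-CON hearts against those of ND AAV-CON, with the control vector in both. Of the 7 members 5 rose in HFD AAV-CON hearts and 0 fell, whereas 22.7% of all genes tested were called higher and 20.6% lower (43.3% in either direction; edgeR quasi-likelihood test, Benjamini-Hochberg adjusted p under 0.05). Fmod rose most, followed by Bgn and Prelp, while Lum and Aspn rose by less and Dcn and Ogn did not pass. The median log2 fold change was 0.74 over the 7 members and -0.0018 over all genes tested. In bulk tissue, fewer or more cells of a type and less or more RNA per cell cannot be told apart. In the same comparison 8 of 12 resident fibroblast, 7 of 11 activated fibroblast and 10 of 10 macrophage markers rose. Of 12 cardiomyocyte markers 8 fell and 1 rose, and 2 activated fibroblast markers fell. The part of these cells in the result was not tested.

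Fmod, which binds collagen I and guides its cross-linking, was the least abundant member and differed most between the groups. In HFD AAV-CON its replicates 1, 2 and 3 held 4202, 145 and 1816 counts, or 67.4, 3.90 and 43.3 CPM, against 17, 12 and 60 counts, or 0.46, 0.32 and 1.52 CPM, in ND AAV-CON. The groups did not overlap, yet the highest HFD AAV-CON library held 17.3 times the CPM of the lowest. The log2 fold change was 5.62 (SE 0.97, adjusted p = 0.0023), the 17th largest rise among the 14160 genes. It was 4.92 without HFD AAV-CON replicate 1, 6.14 without HFD AAV-CON replicate 2 and 6.59 without ND AAV-CON replicate 3, and it was called in all 9 fits that left out 1 library. With limma-voom it was 5.23 and was not called (SE 2.84, adjusted p = 0.155).

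Bgn, the class I proteoglycan that can also signal through Toll-like receptors, had 1446, 520 and 1053 CPM in HFD AAV-CON libraries, against 310, 323 and 298 CPM in ND AAV-CON libraries. All 3 HFD AAV-CON libraries were above all 3 of ND AAV-CON. Bgn had a log2 rise of 1.70 (SE 0.29, adjusted p = 0.0022). The rise was 1.34 to 2.01 when 1 library at a time was left out, and it was called in all 9 of those fits. Dcn, its closest relative and a binder of TGF-beta and collagen, had 1247, 749 and 1083 CPM in HFD AAV-CON, against 824, 832 and 879 CPM in ND AAV-CON. Replicate 2 of HFD AAV-CON was below every ND AAV-CON library and the other two were above. The log2 difference of 0.28 was not called (SE 0.17, adjusted p = 0.196), but without HFD AAV-CON replicate 2 it was 0.46 and passed (SE 0.09, adjusted p = 0.0023). Dcn was also called in 1 of 11 other settings, which gave log2 differences of 0.23 to 0.72.

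Aspn, a class I protein known to bind TGF-beta and collagen, had 132, 66.3 and 118 CPM in HFD AAV-CON, against 65.3, 81.2 and 55.4 CPM in ND AAV-CON. The groups overlapped, because HFD AAV-CON replicate 2 lay among the ND AAV-CON libraries. Its rise of 0.65 (SE 0.23, adjusted p = 0.047) was called in only 2 of the 9 fits that left out 1 library, and in 6 of 11 other settings.

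Prelp, which links basement membranes to the underlying matrix, had 199, 70.3 and 148 CPM in HFD AAV-CON libraries, against 52.0, 43.4 and 48.5 CPM in ND AAV-CON libraries. The groups did not overlap. Prelp rose by 1.54 (SE 0.30, adjusted p = 0.0037), by 1.18 to 1.85 with 1 library left out, and it was called in all 9 of those fits. Lum, a class II proteoglycan that regulates fibril assembly, had 235, 113 and 205 CPM in HFD AAV-CON, against 99.9, 126 and 105 CPM in ND AAV-CON. Here too HFD AAV-CON replicate 2 lay within the ND AAV-CON range. Lum rose by 0.74 (SE 0.23, adjusted p = 0.026) and was called in 5 of the 9 fits with 1 library left out.

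Ogn, the class III member and a small protein known from bone and heart matrix, was the member with a negative log2 difference. It had 108, 90.3 and 108 CPM in HFD AAV-CON, against 123, 115 and 118 CPM in ND AAV-CON. Every HFD AAV-CON library was below every ND AAV-CON library, a pattern that 27.1% of all genes tested showed. The log2 difference of -0.22 (SE 0.09, adjusted p = 0.069) was not called. With total-count scaling, which moved the median of all genes to 0.40 in this comparison, it was 0.20.

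Counted by separation, 3 of the 7 members were higher in all HFD AAV-CON libraries than in any ND AAV-CON library, where 28.2% of all genes were (55.3% in either direction). Relative to the ND AAV-CON range, HFD AAV-CON replicates 1 and 3 were above it for 6 members each and below it for Ogn. HFD AAV-CON replicate 2 was above it for 3 members, Fmod, Bgn and Prelp, within it for Lum and Aspn and below it for Dcn and Ogn. Without HFD AAV-CON replicate 1, without HFD AAV-CON replicate 3, without ND AAV-CON replicate 1 or without ND AAV-CON replicate 3, 3 members were called, and without HFD AAV-CON replicate 2, 6 were. Fmod, Bgn and Prelp were called in each of these. The count of all genes called moved as well, from 4050 to 7325 over the fits with 1 library left out, against 6134 with all 9 libraries.

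**Figure D2:**
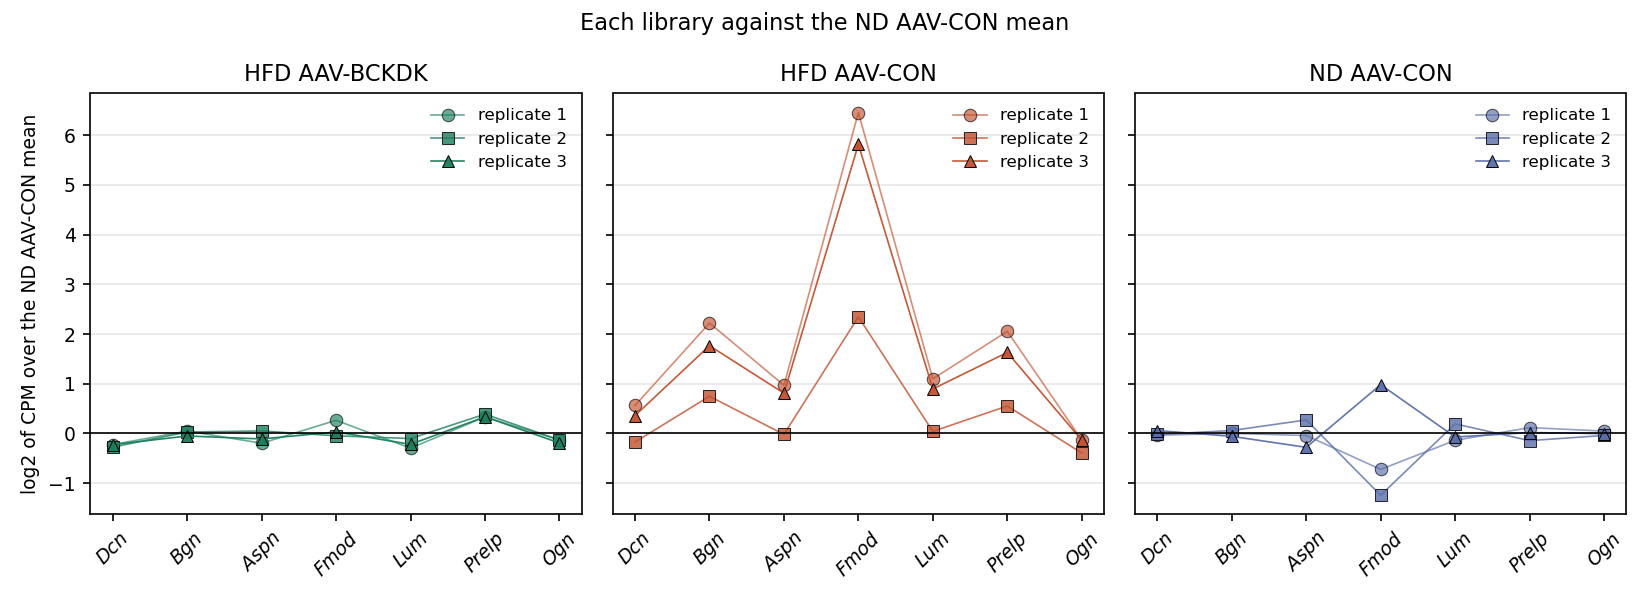
log2 of the CPM of each member in each library over the ND AAV-CON mean of that gene, in 1 panel per group with 1 line per library. The 3 HFD AAV-CON lines share a profile that peaks at Fmod, with replicate 2 lowest throughout, while HFD AAV-BCKDK lines stay near 0.

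The vector comparison set HFD AAV-BCKDK hearts against those of HFD AAV-CON, with the same diet in both. It shares the HFD AAV-CON libraries with the diet comparison, so their values are given side by side and are not independent of each other. Of the 7 members 6 fell in HFD AAV-BCKDK hearts and 0 rose, where 20.9% of all genes tested were called lower and 17.3% higher (38.2% in either direction; edgeR, adjusted p under 0.05). The median log2 fold change was -0.95 over the members and -0.010 over all genes tested. Ogn was the member not called. In the same comparison 7 of 12 resident fibroblast, 7 of 11 activated fibroblast and 10 of 10 macrophage markers fell. Of 12 cardiomyocyte markers 7 rose and 1 fell, and 0 of the fibroblast and macrophage markers rose. The part of these cells in the result was not tested.

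Fmod had 0.92, 0.74 and 0.78 CPM in HFD AAV-BCKDK, from 27, 21 and 33 counts, against 3.90 to 67.4 CPM in HFD AAV-CON. Even its highest HFD AAV-BCKDK library was below the lowest of HFD AAV-CON. The log2 fold change was -5.55 (SE 0.98, adjusted p = 0.0036), and between -6.06 and -4.83 with 1 library left out, called in all 9 fits. With limma-voom it was -4.87 and not called (SE 2.64, adjusted p = 0.166).

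Bgn had 320, 316 and 299 CPM in HFD AAV-BCKDK, against 520 to 1446 CPM in HFD AAV-CON, and the groups did not overlap. It fell by 1.69 (SE 0.29, adjusted p = 0.0034) and was called in all 9 fits with 1 library left out. Dcn had 723, 698 and 723 CPM in HFD AAV-BCKDK, against 749 to 1247 CPM in HFD AAV-CON. The gap between the groups was small, since HFD AAV-CON replicate 2 stood just above them. Dcn fell by 0.52 (SE 0.17, adjusted p = 0.034), but of the 9 fits with 1 library left out only the one without HFD AAV-CON replicate 2 called it. Aspn had 58.7, 69.6 and 62.3 CPM in HFD AAV-BCKDK, against 66.3 to 132 CPM in HFD AAV-CON, and the groups overlapped. It fell by 0.73 (SE 0.23, adjusted p = 0.034) and was called in 3 of those 9 fits.

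Prelp had 60.4, 62.7 and 60.5 CPM in HFD AAV-BCKDK, against 70.3 to 199 CPM in HFD AAV-CON, with no overlap. It fell by 1.19 (SE 0.29, adjusted p = 0.014), called in all 9 fits with 1 library left out, although without HFD AAV-CON replicate 3 the adjusted p was 0.0496. Lum had 89.6, 102 and 94.4 CPM in HFD AAV-BCKDK, against 113 to 235 CPM in HFD AAV-CON, also with no overlap. It fell by 0.95 (SE 0.23, adjusted p = 0.0125), and the call was lost only without HFD AAV-CON replicate 3 (-0.85, adjusted p = 0.051). Ogn had 108, 108 and 104 CPM in HFD AAV-BCKDK, against 90.3 to 108 CPM in HFD AAV-CON. These overlapped, and the difference of 0.06 (SE 0.09, adjusted p = 0.60) was not called.

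In this comparison 5 of the 7 members were separated between groups with HFD AAV-BCKDK lower and 0 with it higher, where 27.3% of all genes were lower and 24% higher (51.2% in either direction). Without HFD AAV-CON replicate 3, only 3 members were called, Fmod, Bgn and Prelp. The direction of Ogn depended on scaling: with total-count scaling, which moved the median of all genes to -0.47, it was -0.41 and called (adjusted p = 0.047).

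**Figure D3:**
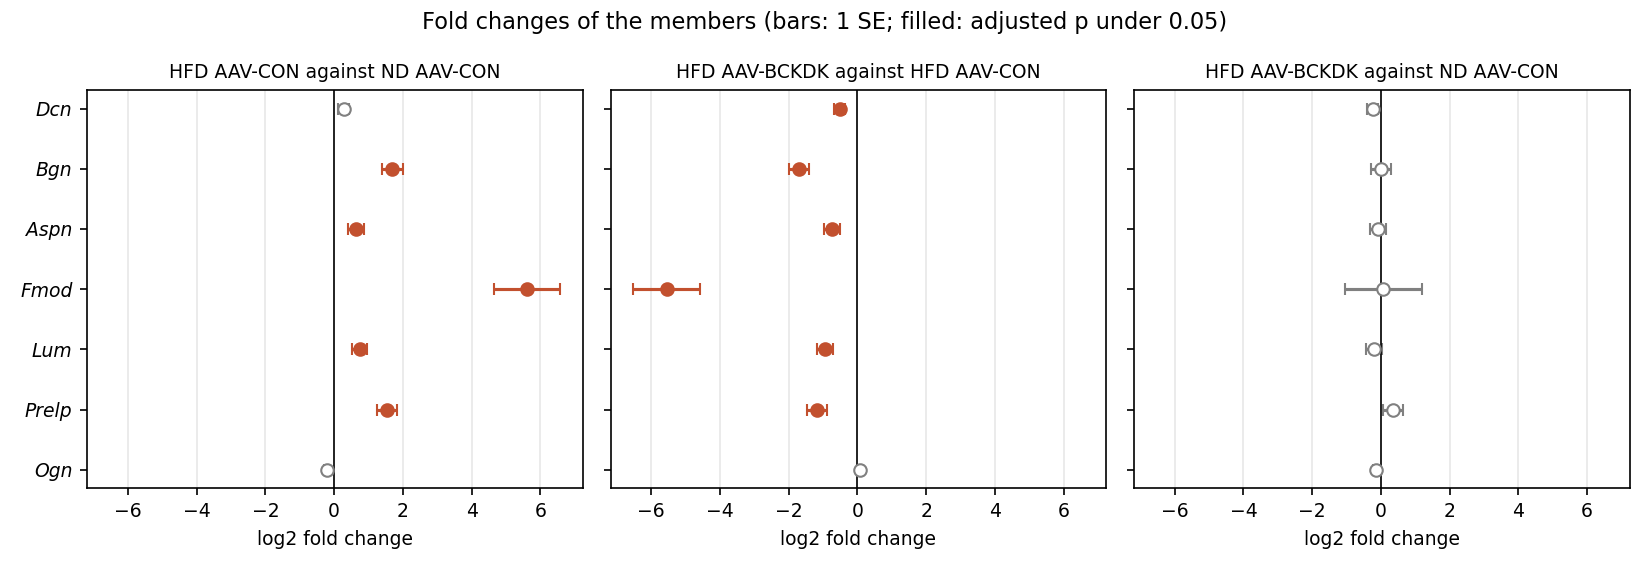
log2 fold change of each member in the 3 comparisons, with bars of 1 SE and filled points for an adjusted p under 0.05 in edgeR. Values run from -0.22 to 5.62 in the diet comparison and from -5.55 to 0.06 in the vector comparison, and lie between -0.24 and 0.35 where HFD AAV-BCKDK is set against ND AAV-CON.

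Between HFD AAV-BCKDK and ND AAV-CON, which differ in both diet and vector, 0 of the 7 members were called by edgeR, where 2.45% of all genes tested were. No member had an unadjusted p under 0.05, and DESeq2 and limma-voom called 0 members as well. Bgn differed by 0.01 (SE 0.28), Fmod by 0.06 (SE 1.12), Aspn by -0.08 (SE 0.23), Ogn by -0.15 (SE 0.09), Lum by -0.21 (SE 0.23) and Dcn by -0.24 (SE 0.17) on the log2 scale. The error of Fmod, which held at most 60 counts in any of these 6 libraries, was the widest of the 7. Prelp was the member furthest above, at 60.4, 62.7 and 60.5 CPM in HFD AAV-BCKDK against 52.0, 43.4 and 48.5 CPM in ND AAV-CON, a difference of 0.35 (SE 0.29, adjusted p = 0.61). Its groups did not overlap, as for 12.6% of all genes in that direction. When these 2 groups were fitted alone, without the spread of HFD AAV-CON, Prelp was called (0.36, SE 0.08, adjusted p = 0.026). Dcn and Ogn were lower in every HFD AAV-BCKDK library than in any ND AAV-CON library, which 15.1% of all genes were (27.7% in either direction). A p that misses the threshold does not show that the groups were alike.

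The makeup of the family was compared within libraries, where no scaling factor enters. The shares of a library add up to a fixed whole, so a member's share can fall where only other members rose. Of the counts of all 7 members, Dcn held 52.8 ± 1.24% in HFD AAV-BCKDK, 40.7 ± 5.20% in HFD AAV-CON and 56.3 ± 1.88% in ND AAV-CON (SD, n = 3 each). Bgn held 23.0 ± 0.68% in HFD AAV-BCKDK, 37.5 ± 4.95% in HFD AAV-CON and 20.7 ± 0.78% in ND AAV-CON. The number of Bgn counts per Dcn count was 0.443, 0.453 and 0.414 in HFD AAV-BCKDK replicates 1, 2 and 3, 1.16, 0.695 and 0.973 in those of HFD AAV-CON, and 0.376, 0.388 and 0.339 in those of ND AAV-CON. No pair of groups overlapped in this ratio, and in HFD AAV-CON replicate 1 biglycan counts outnumbered those of decorin. The exact two-sided permutation p was 0.1 in each of the 3 comparisons, the smallest that 3 against 3 allows. It was 0.133 after adjustment over 12 tests. These set Bgn against Dcn, Fmod against Prelp, Aspn against Ogn and Lum against Dcn in the 3 comparisons. The ratios were chosen after their values were seen. Fmod counts per Prelp count, a ratio of neighbours on chromosome 1, numbered 0.0153, 0.0118 and 0.0130 in HFD AAV-BCKDK, 0.338, 0.0555 and 0.292 in HFD AAV-CON, beside 0.00893, 0.00747 and 0.0312 in ND AAV-CON. HFD AAV-CON was above both other groups in every library (exact p = 0.1, adjusted p = 0.133 in either comparison). The same held for Aspn per Ogn and Lum per Dcn, with the same permutation p and adjusted p. For Lum per Dcn the gap was narrow, with 0.1511 in HFD AAV-CON replicate 2 against 0.1510 in ND AAV-CON replicate 2.

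The less abundant members were read in the same way. Ogn held 7.89 ± 0.14% of the family's counts in HFD AAV-BCKDK, 4.23 ± 1.25% in HFD AAV-CON and 7.92 ± 0.37% in ND AAV-CON. Fmod held 0.0602 ± 0.0067% in HFD AAV-BCKDK, 1.26 ± 0.90% in HFD AAV-CON and 0.0512 ± 0.0432% in ND AAV-CON. Prelp held 4.52 ± 0.09% in HFD AAV-BCKDK, 5.18 ± 0.74% in HFD AAV-CON and 3.20 ± 0.34% in ND AAV-CON. Lum held 7.05 to 7.33% and Aspn 4.07 to 4.69% as group means. For the ratio of a member to the other 6, the exact permutation p of the diet comparison was 0.1 for Fmod, Dcn, Bgn, Ogn and Prelp (adjusted over the 7 members, 0.14), 0.6 for Aspn and 0.9 for Lum. In the vector comparison it was 0.1 (adjusted 0.14) for Fmod, Dcn, Bgn, Ogn and Aspn, 0.4 for Prelp and 1 for Lum. Between HFD AAV-BCKDK and ND AAV-CON the groups did not overlap for Prelp, Bgn and Dcn, with log2 ratio differences of 0.52, 0.20 and -0.21 (exact p = 0.1, adjusted p = 0.233 for each).

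**Figure D4:**
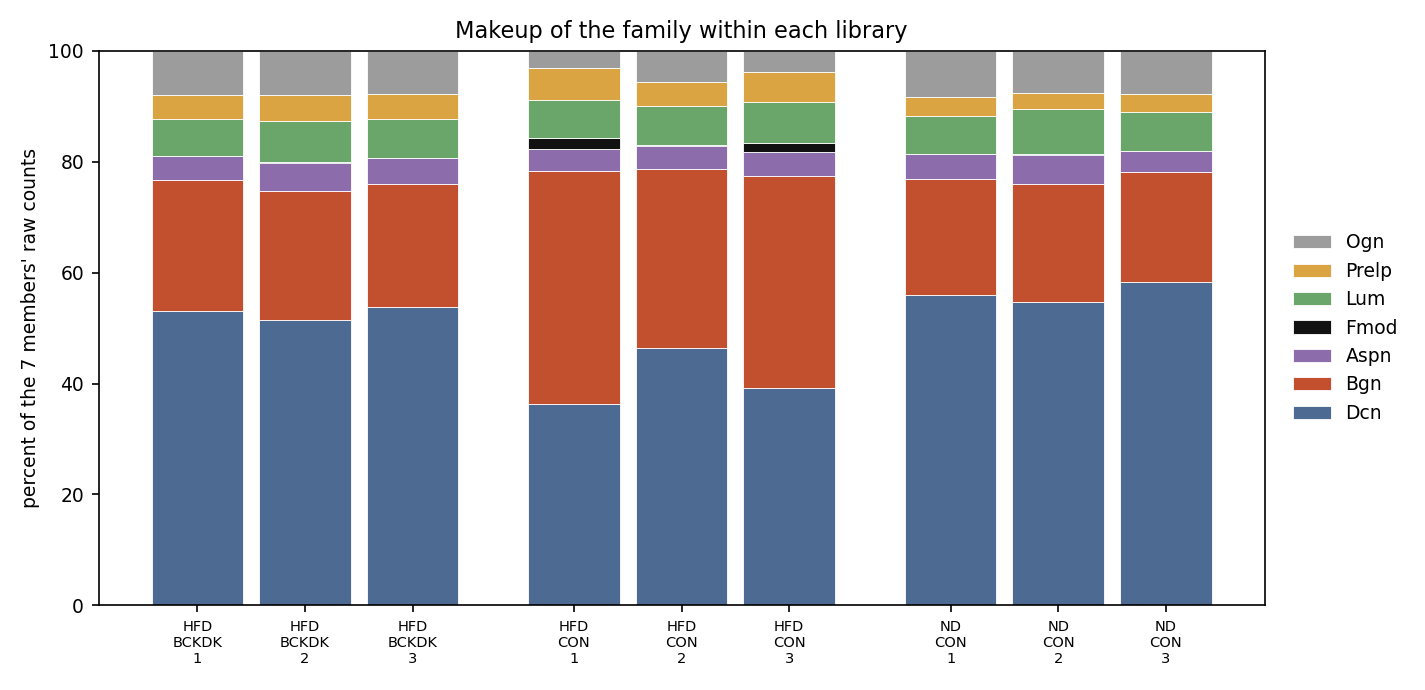
Percent of the 7 members' raw counts held by each member, as 1 stacked bar per library, by group and replicate number. Bgn takes a larger part, and Dcn and Ogn a smaller one, in the 3 HFD AAV-CON bars, where Bgn holds 32.3% to 42.1%, and Fmod is visible in replicates 1 and 3 of that group.

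Across the 9 libraries the log2 CPM of Fmod and Bgn had a Pearson r of 0.97, Lum and Aspn one of 0.97, and Dcn and Lum one of 0.93. Ogn had r between -0.29 and 0.20 with the other 6. The points share their groups and the spread of HFD AAV-CON, so r describes these libraries and carries no test. Among the annotated genes whose pattern was most like that of a member, by the same measure over the 9 libraries, were Trps1 (0.994), Serp1 and Edem1 for Fmod and Nsd2 (0.998), Lox (0.996) and Pamr1 for Bgn. They included Gnptab (0.996) and Fndc3b for Prelp, and Slc16a6 (0.973) and Arl10 for Dcn. For Lum they were Atp6v0a4 (0.988), Igfbp6 and C1qtnf5, for Aspn Dio2 (0.986), Atp6v0a4 and Lum (0.970), and for Ogn Sept10 (0.976), Vegfc and Rora.

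Of the 10 further genes of the wider family, 6 were tested and Tsku alone was called, 1 of 6 in the diet comparison and in the vector comparison, where 43.3% and 38.2% of all genes tested were called. Tsku, a secreted modulator of growth factor signalling, had 2.32, 3.64 and 2.04 CPM in HFD AAV-BCKDK, 7.17, 4.09 and 6.25 CPM in HFD AAV-CON, and 2.93, 2.27 and 1.84 CPM in ND AAV-CON. It fell by 1.14 in the vector comparison (SE 0.29, adjusted p = 0.016) and rose by 1.32 in the diet comparison (SE 0.29, adjusted p = 0.0069). Podnl1 had 0, 10 and 13 counts in HFD AAV-BCKDK, 185, 33 and 98 counts in HFD AAV-CON, and 0, 0 and 26 counts in ND AAV-CON. Its log2 difference of 3.20 in the diet comparison missed the threshold (SE 1.201, adjusted p = 0.056). Ecm2 and Omd, the chromosome 13 neighbours of Aspn and Ogn, were not called in any of the 3 comparisons, nor were Podn and Nyx. Ecm2 had 46.8, 34.2 and 42.7 CPM in HFD AAV-CON, against 38.4, 34.1 and 37.9 CPM in ND AAV-CON. Kera, which lies beside Lum and is known from the cornea, had 0 counts in all 9 libraries, where a count of 0 allows up to 3 counts per library. Epyc, Optc and Chad, known from cartilage and eye, held at most 15 counts in a library and were not tested.

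The genes that the proteoglycans work with were read from lists chosen for their roles. The counts stand beside 22.7% of all genes tested called higher and 20.6% lower in the diet comparison. In the vector comparison 17.3% of all genes were called higher and 20.9% lower. For fibrillar collagens, 6 of 8 tested genes rose and 0 fell in HFD AAV-CON relative to ND AAV-CON (median 1.76), among them Col1a1 by 2.28 (SE 0.27), Col1a2 by 2.11 (SE 0.29), Col3a1 by 2.29 (SE 0.33) and Col5a1 by 1.49 (SE 0.21). In HFD AAV-BCKDK relative to HFD AAV-CON the count was 6 lower and 0 higher (median -1.61), with Col1a1 at -1.93 (SE 0.27). Of fibril-associated collagens and other fibril regulators, 10 of 12 rose in HFD AAV-CON (median 1.52), including the collagen VI chains Col6a3 by 1.48 (SE 0.15), Col6a2 by 1.57 (SE 0.17) and Col6a1 by 1.38 (SE 0.17) and the matricellular protein Tnc by 5.02 (SE 0.62). In HFD AAV-BCKDK 10 of the 12 fell (median -1.16), Tnc with a log2 fold change of -4.92 (SE 0.62).

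Collagen cross-linking enzymes, whose action Fmod is known to modulate through Lox, gave 7 rises of 8 tested (median 1.38). Of all genes tested, 22.7% were called higher in the diet comparison. The lysyl oxidases Lox, Loxl3 and Loxl2 rose by 2.86 (SE 0.44), 2.65 (SE 0.40) and 1.57 (SE 0.19), and the lysyl hydroxylase Plod3 by 0.91 (SE 0.09). In HFD AAV-BCKDK 7 fell (median -1.21), Lox with -2.87 (SE 0.45), where 20.9% of all genes tested were called lower. Plod3 was also called higher in HFD AAV-BCKDK than in ND AAV-CON, by 0.44 (SE 0.09, adjusted p = 0.044).

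Enzymes that build the sugar chains were read by chain type. In the diet comparison 22.7% of all genes tested were called higher and 20.6% lower (43.3% in either direction). In the vector comparison 17.3% were called higher and 20.9% lower (38.2% in either direction). For chondroitin and dermatan sulfate synthesis, 9 of 21 tested genes rose in HFD AAV-CON and 12 were not called (median 0.45). The risers included Dse, the epimerase that converts chondroitin into dermatan sulfate, by 1.86 (SE 0.26), the polymerising factors Chsy1 by 1.07 (SE 0.15) and Chpf by 0.87 (SE 0.11), and the sulfotransferase Chst11 by 0.999 (SE 0.16). In HFD AAV-BCKDK 10 fell (median -0.46), Dse with -1.56 (SE 0.25), and B3gat3 and Fam20b, which act on the linkage region, rose by 0.34 each. For keratan sulfate, the chain of Fmod and Lum, 3 of 6 rose in HFD AAV-CON (median 0.42), namely B4galt1 by 0.75 (SE 0.10), Chst2 by 1.42 (SE 0.31) and B3gnt2 by 1.31 (SE 0.46), while Chst1 at -0.21 was not called. B4galt1 was also called higher in HFD AAV-BCKDK than in ND AAV-CON, by 0.50 (SE 0.10, adjusted p = 0.037). In HFD AAV-BCKDK 2 of these 6 fell (median -0.11), Chst2 by 1.45 (SE 0.32) and B3gnt2 by 2.51 (SE 0.49).

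In the diet comparison 22.7% of all genes tested were called higher and 20.6% lower. In the vector comparison the shares were 17.3% higher and 20.9% lower. Of genes that process or cleave the core proteins, 7 of 13 rose and 1 fell in HFD AAV-CON (median 0.63). The membrane protease Mmp14 rose by 1.59 (SE 0.24), Mmp2 by 1.36 (SE 0.23) and Pcolce, the enhancer of procollagen processing, by 0.96 (SE 0.15), while the proteoglycanase Adamts5 fell by 0.81 (SE 0.13). In HFD AAV-BCKDK the count was 8 lower and 1 higher (median -0.55), with Adamts5 up by 0.57 (SE 0.13). Receptors known to sense soluble biglycan or decorin, and their adaptors, gave 9 rises and 3 falls of 14 in HFD AAV-CON (median 0.66). Tlr2 rose by 2.40 (SE 0.32), its co-receptor Cd14 by 2.05 (SE 0.22), the purinergic receptor P2rx7 by 1.39 (SE 0.20) and Lrp1 by 0.97 (SE 0.16), while Kdr, a growth factor receptor of endothelium, fell by 0.72 (SE 0.14), Erbb4 by 0.66 (SE 0.18) and Igf1r by 0.28 (SE 0.10). In HFD AAV-BCKDK 9 fell (median -0.69), Tlr2 with -2.48 (SE 0.32), and 2 rose, Kdr by 0.998 (SE 0.14) and Erbb4 by 0.77 (SE 0.18). Of TGF-beta ligands, binders and responsive genes, 10 of 14 rose and 1 fell in HFD AAV-CON (median 0.97), the one that fell being the co-receptor Tgfbr3, by 0.43 (SE 0.09). The genes that rose included Ltbp2 by 4.36 (SE 0.61), Tgfbi by 1.45 (SE 0.21) and the receptor Tgfbr1 by 1.74 (SE 0.27). In HFD AAV-BCKDK 9 fell (median -0.76), Ltbp2 with -4.60 (SE 0.62), and 1, Tgfbr3, rose by 0.48 (SE 0.09).

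**Figure D5:**
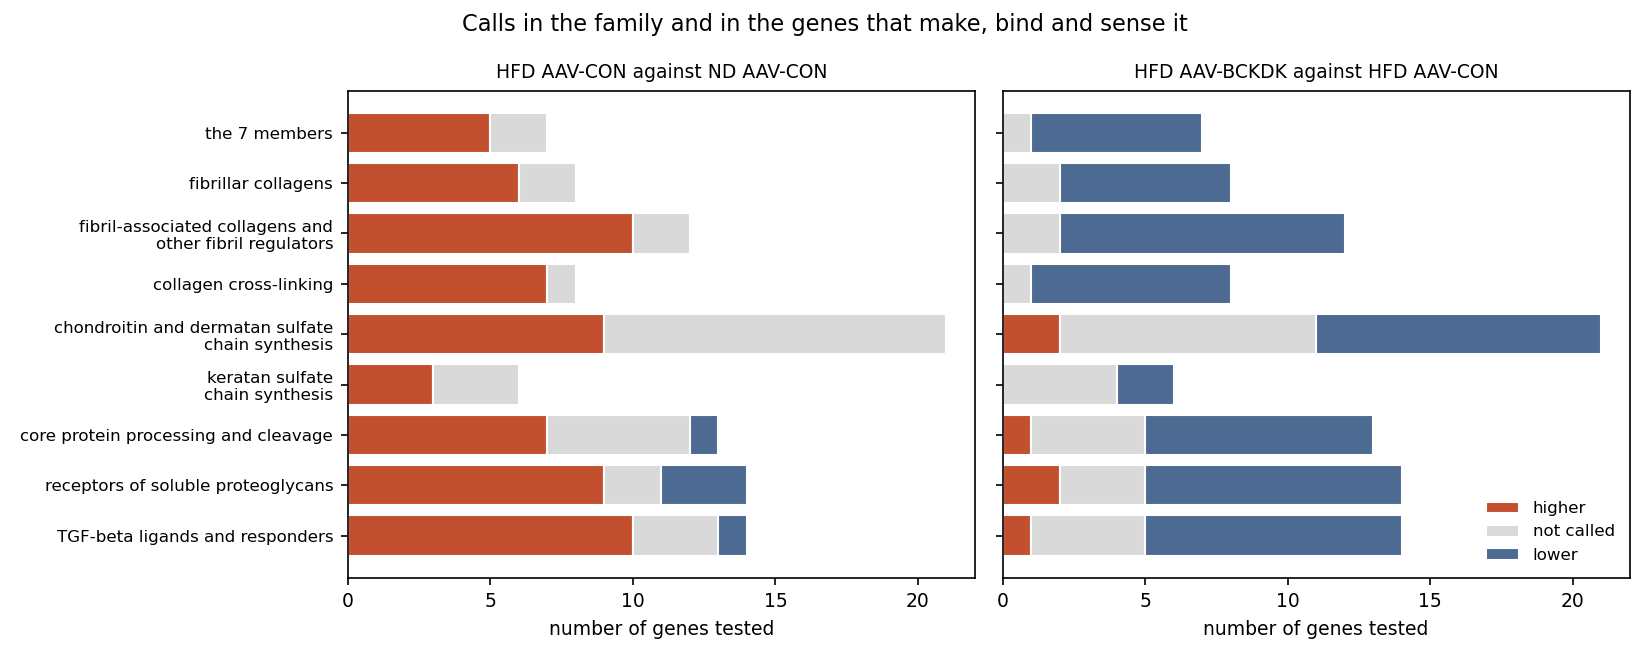
Number of genes called higher, not called or called lower by edgeR (adjusted p under 0.05) among the 7 members and in each list of genes that make, bind, process or sense them, in the diet comparison (left) and the vector comparison (right). For fibril regulators 10 of 12 genes are higher on the left and 10 of 12 lower on the right, while for chondroitin and dermatan sulfate synthesis 9 of 21 are higher on the left and 10 of 21 lower on the right. Over all genes tested, 22.7% were called higher and 20.6% lower on the left (43.3% in either direction). On the right 17.3% were called higher and 20.9% lower (38.2% in either direction).

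Markers of fibroblasts, the usual source of these proteoglycans, were read as 2 lists. Their counts stand beside 22.7% of all genes tested called higher and 20.6% lower in the diet comparison. The summed CPM of 12 resident fibroblast markers was 1649 to 1765 in HFD AAV-BCKDK, 1876 to 1999 in HFD AAV-CON and 1570 to 1683 in ND AAV-CON, and 8 of 12 rose and 0 fell in HFD AAV-CON relative to ND AAV-CON. Within HFD AAV-CON this sum was 1915, 1999 and 1876 CPM in replicates 1, 2 and 3. Such a sum is weighted toward the most abundant genes of its list. The sum of 13 activated fibroblast and matrifibrocyte markers was 271 to 340 in HFD AAV-BCKDK, 591 to 2215 in HFD AAV-CON and 282 to 373 in ND AAV-CON. It was 2215, 591 and 1652 in HFD AAV-CON replicates 1, 2 and 3, the order that the members followed. That order was not particular to this list. It also held for macrophage markers, at 3160, 1933 and 2568 CPM, and for fibrillar collagens, at 2198, 886 and 1687 CPM. Cardiomyocyte markers ran in reverse, at 23900, 39372 and 29467 CPM. Of the 11 activated fibroblast markers tested, 7 rose and 2 fell in HFD AAV-CON. Postn was up by 3.51 (SE 0.51), Cilp by 3.89 (SE 0.56), Meox1 by 1.75 (SE 0.24) and Ckap4 by 0.82 (SE 0.09). The contractile actin gene Acta2, a usual marker of myofibroblasts and smooth muscle, fell by 0.38 (SE 0.10, adjusted p = 0.014) and Lrrc15 by 1.58 (SE 0.41, adjusted p = 0.013), while Tagln at 0.08 and Fap at -0.03 were not called.

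Markers of other cell types were called as well. Over all genes tested, 22.7% were called higher and 20.6% lower in the diet comparison. In the vector comparison 17.3% were called higher and 20.9% lower. All 10 macrophage markers rose in HFD AAV-CON, with sums of 534 to 717 CPM in HFD AAV-BCKDK, 1933 to 3160 CPM in HFD AAV-CON and 709 to 972 CPM in ND AAV-CON. Of 12 cardiomyocyte markers 8 fell and 1 rose, with sums of 42462 to 47165 CPM in HFD AAV-BCKDK, 23900 to 39372 CPM in HFD AAV-CON and 47675 to 50650 CPM in ND AAV-CON. Endothelial markers gave 7 falls of 10 and pericyte and smooth muscle markers 3 of 8. In HFD AAV-BCKDK relative to HFD AAV-CON, all 10 macrophage markers fell, and 7 cardiomyocyte, 8 endothelial and 3 pericyte and smooth muscle markers rose. The cardiomyocyte marker Nppa fell, with a log2 fold change of -3.12 (SE 0.63, adjusted p = 0.0064). Of 7 mesothelial markers 4 were tested and 0 were called, and their sum was 7.88 to 12.6 CPM in HFD AAV-BCKDK, 5.04 to 11.7 CPM in HFD AAV-CON and 10.96 to 20.7 CPM in ND AAV-CON. Of tendon, cartilage and valve markers, cell types in which Fmod is abundant, 4 of 10 were tested. Sox9 rose by 2.01 (SE 0.38), Matn4 by 1.39 (SE 0.50) and Scx by 0.88 (SE 0.29), and Cytl1 fell by 1.27 (SE 0.18) in HFD AAV-CON relative to ND AAV-CON. In the vector comparison 0 of these 4 fell and Cytl1 rose by 1.16 (SE 0.18), while Matn4 at 0.26, Scx at -0.43 and Sox9 at -0.85 were not called. The sum of the list was 16.7 to 20.01 CPM in HFD AAV-BCKDK, 15.3 to 21.5 CPM in HFD AAV-CON and 13.1 to 18.5 CPM in ND AAV-CON, with Kera at 0 in all 9 libraries and Tnmd and Hapln1 at 0 in HFD AAV-BCKDK and ND AAV-CON. Of 6 adipocyte markers Lep was at 0 in all 9 libraries, and the sum was 0.410 to 4.56 CPM in HFD AAV-BCKDK, 0.0642 to 0.592 CPM in HFD AAV-CON and 0.0547 to 0.594 CPM in ND AAV-CON. Cfd, the one tested, was called higher in the vector comparison, by 3.40 (SE 1.10, adjusted p = 0.036), from 8, 50 and 104 counts in HFD AAV-BCKDK against 0, 8 and 10 counts in HFD AAV-CON. The part of any of these cell types in the levels of the 7 members was not tested.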

How the data were processed

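Left ventricular RNA of 9 libraries was isolated with Trizol and sequenced as mRNA, per the labels' protocols, and HISAT2 2.0.5 with build mm10 was named per the submitters' processing notes. The values the authors deposited are raw read counts per gene, with no normalization; the counting tool, annotation and strand setting were not stated. Loci without a gene name, 1.02% to 6.01% of counts, were left out. The test was run on annotated genes with edgeR 4.0.16 in R 4.3.3: filterByExpr by group, TMM factors, 1 coefficient per group over all 9 libraries, the quasi-likelihood test and Benjamini-Hochberg adjustment over 14160 genes at 0.05. TMM factors were 1.42, 1.03 and 1.22 in HFD AAV-CON replicates 1, 2 and 3 and 0.863 to 0.956 elsewhere. The SE of a fold change was derived from its F statistic, and CPM came from TMM-scaled totals. Every adjusted p in the text is from this test unless another is named. No library matched another within sampling noise (chi-square per degree of freedom 14.9 to 261), and p-values measure the spread between these libraries.

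Within-library ratios were compared with exact two-sided permutation tests (scipy 1.17.1). Locations came from GENCODE M21. Fits with RLE, upper-quartile and total-count scaling, other filters, DESeq2 1.42.0, limma-voom (limma 3.58.1), a replicate block, 2 groups alone, other gene sets, a false discovery rate of 0.01 and 1 library left out were alternatives. The fit was run on simulated data in which all groups had the same spread per gene. That run did not test the fit under the wider spread of HFD AAV-CON. Members, lists and tests were chosen with earlier results of these data known. Named genes were the members, the tested family genes, up to 4 genes per list with the smallest p in the diet comparison, and the 3 genes most correlated with each member. A few genes this rule picks are not reported here. Genes named outside that rule (B3gat3, Fam20b, Kdr, Erbb4, Igf1r, Tgfbr3, Acta2, Lrrc15, Tagln, Fap and marker genes at 0) were chosen after their values were seen.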

Additional observations from a re-analysis of the deposited data

How the results depend on the processing

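In the diet comparison (HFD AAV-CON over ND AAV-CON), 5 members were called, against 3 with limma-voom, with 2 groups alone or at a false discovery rate of 0.01 and 3 to 6 with 1 library left out. The count of all genes was 6134, against 3254 at 0.01 and 4050 to 7325 with 1 library left out. In the vector comparison (HFD AAV-BCKDK over HFD AAV-CON), 6 members and 5410 genes were called, against 2 and 2058 at 0.01, and 3 to 6 and 2847 to 6978 with 1 library left out. Between HFD AAV-BCKDK and ND AAV-CON, 347 genes were called, against 136 with total-count scaling, 902 with DESeq2, 873 with 2 groups alone, where 1 member, Prelp, was called, 64 at 0.01, and 43 to 744 with 1 library left out, when 0 members were called. Same-numbered libraries did not deviate together (r of -0.22 to 0.19, over 0.1 in 2 of 9 pairs). With the number as a replicate block, 3 members were called in the diet comparison, 5 in the vector comparison and 0 between HFD AAV-BCKDK and ND AAV-CON, where 107 genes were.

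Signs turned for Ogn with total-count scaling (0.20 in the diet comparison and -0.41 in the vector comparison). Between HFD AAV-BCKDK and ND AAV-CON, where differences were near 0, they turned for Bgn (-0.0061 with upper-quartile and -0.050 with total-count scaling). With 1 library left out, values there ran from -0.30 to 1.04 for Fmod, -0.022 to 0.037 for Bgn and -0.21 to 0.073 for Aspn. As a ratio to Dcn alone, shares turned for Lum (0.44) and Aspn (0.35) in the diet comparison, for Aspn (-0.18) in the vector comparison, and for Lum (0.042) and Ogn (0.088) between HFD AAV-BCKDK and ND AAV-CON. The cause was not tested. Fmod had 12 to 60 counts per library outside HFD AAV-CON.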
